A study of Mus musculus with 6 samples.

Results

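The genes described are 9 negative-feedback regulators of mitogen-activated protein kinase (MAPK) signalling: the dual-specificity phosphatase genes Dusp1, Dusp2, Dusp4, Dusp5, Dusp6 and Dusp10, and the Sprouty-family genes Spry1, Spry2 and Spred1. They were taken by symbol from a table of 17985 genes, and all 9 were found. RNA-seq libraries of thymic iNKT1 cells gave their transcript levels; iNKT1 cells are the T-bet-expressing subset of invariant natural killer T cells, from untreated mice of C57BL/6 background. The Ctrl group (3 libraries) was Tbx21CreTg;Rosa26-LSL-YFP+/+, and the cKO group (3 libraries) was Tbx21CreTg;Rosa26-LSL-YFP+/+;Tgfbr2F/F. Both groups therefore carried the Cre transgene and the yellow fluorescent protein reporter, and only cKO carried the floxed Tgfbr2 alleles. Because Cre is driven by Tbx21, the receptor gene is targeted only in cells that have switched on Tbx21. The labels call the replicates independent but do not say how many mice gave each library, nor their age, so p-values measure the spread between these libraries, which may be technical. The comparison asks how these regulators are expressed when the TGF-beta receptor gene is targeted.

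MAPK cascades carry signals from the antigen receptor and from growth factor and cytokine receptors through RAS, RAF and MEK to the kinase ERK, and through parallel arms to p38 and JNK. Dual-specificity phosphatases remove the activating phosphates from the threonine and tyrosine of these kinases, whereas Sprouty and Spred proteins restrain the pathway upstream, at RAS and RAF. Many of these genes are themselves induced by the cascade they inhibit, and in T cells their transcripts are known to follow antigen receptor stimulation. TGF-beta receptors signal mainly through SMAD proteins but can also act on MAPK cascades.

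Sequence just upstream of the start site is shown for Dusp1, Dusp5 and Dusp6, because the first pair held signal-responsive motifs and Dusp6 is the gene with the smallest p-value of the 9. Windows of 250 bases came from RefSeq (build GRCm38.p6) and were present for 8 of the 9 genes, all but Dusp4. Both strands were searched for the cyclic AMP response element (CRE, TGACGTCA) and its core TGACGT, which overlaps it, for the AP-1 site TGANTCA, the CArG box bound by serum response factor, the ETS site CCGGAAG and the SMAD palindrome GTCTAGAC. The stretches below run 5′ to 3′ from base 250 to base 51 before the start site, and capitals mark matches. They lie at chr17:26508523-26508722 (minus strand), chr19:53528895-53529094 (plus strand) and chr10:99262981-99263180 (plus strand).
Dusp1: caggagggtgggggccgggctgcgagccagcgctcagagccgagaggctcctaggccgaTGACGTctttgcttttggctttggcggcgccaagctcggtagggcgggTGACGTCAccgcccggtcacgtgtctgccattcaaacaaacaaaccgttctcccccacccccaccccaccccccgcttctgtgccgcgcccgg
Dusp5: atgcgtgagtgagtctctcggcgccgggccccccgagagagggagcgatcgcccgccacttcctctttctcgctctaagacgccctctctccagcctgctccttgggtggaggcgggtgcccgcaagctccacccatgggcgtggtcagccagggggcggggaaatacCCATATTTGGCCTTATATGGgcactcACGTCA
Dusp6: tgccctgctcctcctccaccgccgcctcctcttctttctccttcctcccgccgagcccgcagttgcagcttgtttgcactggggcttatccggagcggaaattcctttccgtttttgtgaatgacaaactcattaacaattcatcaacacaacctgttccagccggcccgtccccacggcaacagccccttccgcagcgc

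The Dusp1 window held a CRE at bases 143 to 136 before the start site and a separate core at bases 191 to 186. The Dusp5 window held adjoining CArG boxes, CCATATTTGG at bases 82 to 73 and CCTTATATGG at bases 72 to 63, and a CRE core on the other strand at bases 56 to 51. No searched motif was in the windows of Dusp6, Dusp2, Dusp10, Spry1, Spry2 or Spred1. The Dusp10 window (chr1:184034131-184034380) precedes a RefSeq start site that lies inside the gene as counted here (184013302 to 184075636). The RefSeq start sites of Dusp1 and Dusp5 also lie inside the counted gene, nearer its edge. The Dusp1 window (chr17:26508473-26508722) overlaps a minus-strand gene that runs to 26508519. The Dusp5 window (chr19:53528895-53529144) overlaps a plus-strand gene that starts at 53529109. Motif positions are counted from the RefSeq start sites. Among 26994 RefSeq windows, one per gene, a CRE was found in 1.63%, the core in 6.55%, an AP-1 site in 6.87%, a CArG box in 1.40%, the ETS site in 7.05% and the SMAD palindrome in 0.174%. A match describes the letters in the window and does not show binding.

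CPM values express a gene's reads relative to all reads of its library, on a common scale. Libraries held between 28832779 and 68092478 reads, and a single read equals 0.0147 to 0.0347 CPM. Both replicate 3 libraries stood apart: 4406 and 4590 genes were listed at 0 in them, against at most 5 in any other library, and each group held 1 of them. All 10 iNKT1 markers examined were above 1 CPM in every library, with summed levels from 7927 to 9583 CPM in Ctrl and from 8414 to 11498 CPM in cKO. Markers of B cells summed to at most 16.1 CPM in any library, double-positive thymocyte markers to at most 22.3 CPM and myeloid markers to at most 10.2 CPM. Markers of iNKT2 cells, a sister subset, were higher: all 6 were above 1 CPM in every library, and they summed to between 411 and 562 CPM in Ctrl and between 371 and 574 CPM in cKO. Icos (150 to 268 CPM over all libraries) and Gata3 (173 to 209 CPM) made up most of each sum. The 6 genes did not move together. Il4, Gata3 and Icos were lower in cKO in each same-numbered pair, and Plac8, Il17rb and Ccr4 were higher. Il4 ran from 24.6 to 44.3 CPM in Ctrl and from 14.4 to 20.9 CPM in cKO, and Ccr4 from 6.72 to 13.1 CPM and from 12.8 to 33.7 CPM. The part of iNKT2 cells in the results was not tested. In bulk RNA, fewer cells of a type and less RNA per cell cannot be told apart. The targeted gene, Tgfbr2, fell to 61.0% of its Ctrl mean in cKO (limma adjusted p 0.0207), a call lost under edgeR without the replicate block (adjusted p 0.0620) and on leaving out any library but cKO replicate 3 (limma adjusted p from 0.0545 to 0.156).

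Levels differed widely among the 9 genes. Per kilobase of merged exon length (GENCODE M21), Dusp2 was highest, at 389.7 ± 91.4 CPM per kilobase in Ctrl and 332 ± 111 in cKO (SD, n = 3 each). It was followed in Ctrl by Dusp5 at 47.3 ± 19.8, Dusp6 at 26.9 ± 2.80 and Dusp1 at 18.8 ± 7.30 CPM per kilobase. The library ranges of Dusp5 and Dusp6 overlapped in both groups, as did those of Dusp6 and Dusp1, but within each of the 6 libraries Dusp5 was above Dusp6 and Dusp6 above Dusp1. Dusp10 (6.23 ± 0.527) and Spry2 (5.10 ± 0.60 CPM per kilobase) came next and did not overlap each other in either group. Spred1 was at 1.46 ± 0.379, Spry1 at 0.823 ± 0.233 and Dusp4 at 0.242 ± 0.243 CPM per kilobase in Ctrl. The ranges of Spry1 and Dusp4 overlapped in cKO but not in Ctrl. The order of the means was the same in cKO.

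**Figure D1:**
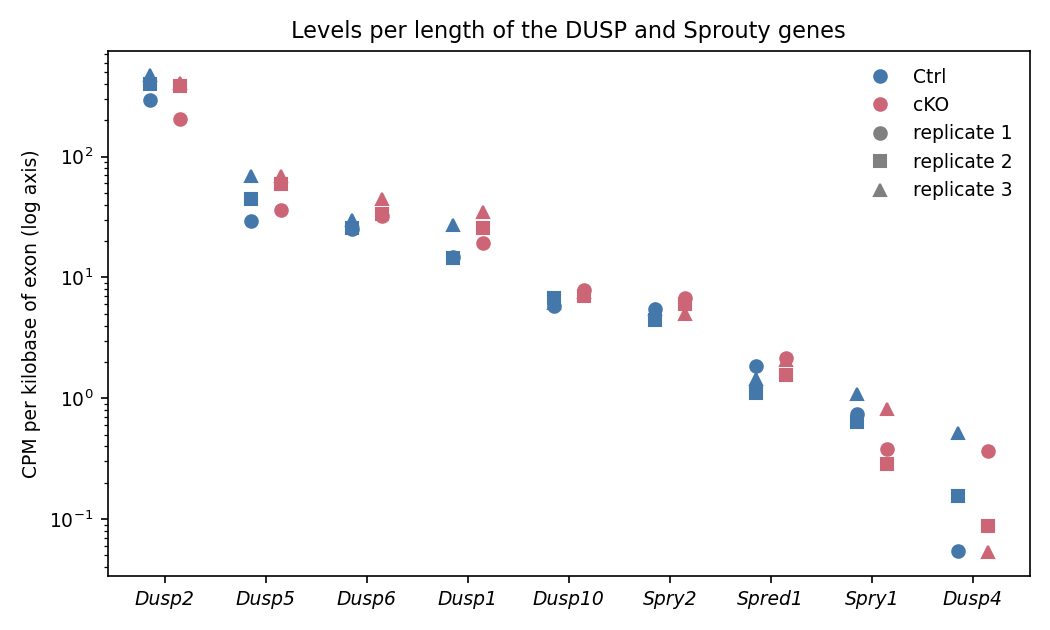
Level of each gene in CPM per kilobase of merged exon (log axis), with 1 point per library, blue for Ctrl and red for cKO, and marker shape for the replicate number. Dusp2 lay above all other genes in every library, and the ranges of Dusp5, Dusp6 and Dusp1 over libraries overlapped.

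Dusp6 encodes the cytoplasmic phosphatase that acts on ERK (ENSMUSG00000019960, chromosome 10, 99263231 to 99267488, plus strand). It was at 78.5, 79.9 and 94.3 CPM in the Ctrl libraries numbered 1 to 3, against 101.7, 105.7 and 138.8 CPM in the same-numbered cKO libraries. Every cKO library was above every Ctrl library, and the replicate 3 library was the highest of each group. The mean was 84.2 ± 8.78 CPM (Ctrl) against 115.4 ± 20.4 CPM (cKO; SD, n = 3 each). The ratio of cKO to Ctrl was 1.30, 1.32 and 1.47 in the same-numbered pairs. The log2 fold change, here and below on the log2(CPM + 1) scale, was 0.44 (standard error 0.145) with a 95% interval from 0.095 to 0.79. It did not pass the threshold of 0.05 (limma adjusted p 0.575 after Benjamini-Hochberg adjustment over 15691 genes). The replicate number was also used as a block, although the pairing check described under processing leaves the pairs of replicates 1 and 2 unsettled. With this replicate block the standard error was 0.0877 and Dusp6 rose (limma adjusted p 0.0360). The call was lost without pair 1 (blocked limma adjusted p 0.0875) and without pair 2 (0.135) and kept without pair 3 (0.00472), fits chosen after the data had been seen that leave 1 residual degree of freedom. The authors' deposited likelihood-ratio test gave Dusp6 a log2 value of 0.53 and an adjusted p of 0.949. That test did not call the targeted gene Tgfbr2 either (adjusted p 0.373).

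The 4 other ERK-directed or broadly acting phosphatases of the set are nuclear. Dusp1, an early-response gene whose product acts on p38 and JNK as well as ERK (ENSMUSG00000024190, chromosome 17, 26505590 to 26508519, minus strand), was at 48.9, 47.6 and 90.1 CPM in the Ctrl libraries numbered 1 to 3. The same-numbered cKO libraries held 64.3, 84.3 and 115.7 CPM. The groups overlapped because Ctrl replicate 3 lay above the first and second cKO libraries, yet cKO was higher in each same-numbered pair, by ratios of 1.32, 1.77 and 1.28. The mean was 62.2 ± 24.2 CPM (Ctrl) against 88.1 ± 25.9 CPM (cKO; SD, n = 3 each). The log2 fold change was 0.52, 95% interval from -0.21 to 1.24 (limma adjusted p 0.99998). With the replicate block the interval was 0.26 to 0.78 and the limma adjusted p 0.0545, just short of passing. It was 0.0228 with the block and TMM scaling, and edgeR's quasi-likelihood test with the block gave an adjusted p of 0.0179.

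Dusp1 is among the transcripts known to rise during cell isolation, so a list of 14 other immediate early and stress genes was examined beside it. Of the 13 tested, 12 had a log2 fold change above 0, with a median of 0.28 against -0.04 for all tested genes. None of them passed, with or without the block (limma), while 1 and 7 of them respectively had an unadjusted p under 0.05, against 6.02% and 12.6% of all tested genes. The summed level of the 13 genes was 1619, 1735 and 2081 CPM in Ctrl replicates 1 to 3 and 2011, 1862 and 2170 CPM in cKO replicates 1 to 3. It was higher in cKO in every same-numbered pair, as Dusp1 was. Atf3, a stress-induced transcription factor, was at 0.575 ± 0.251 CPM (Ctrl) against 2.15 ± 0.882 CPM (cKO; SD, n = 3 each). The part of these genes in the Dusp1 values was not tested.

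Dusp2 encodes a nuclear phosphatase abundant in activated leukocytes (ENSMUSG00000027368, chromosome 2, 127336159 to 127338376, plus strand). It was at 590.3, 796 and 955 CPM in the Ctrl libraries numbered 1 to 3, against 409, 769 and 819 CPM in the same-numbered cKO libraries. The groups overlapped, replicate 1 being the lowest of each. The means were 781 ± 183 and 666 ± 223 CPM (SD, n = 3 each), and cKO was lower in each pair, with ratios of 0.694, 0.965 and 0.857. The log2 fold change was -0.27 with a 95% interval from -0.98 to 0.44 (limma adjusted p 0.99998), and with the block the adjusted p was 0.273. Without cKO replicate 1 alone the value was 0.051, in a fit where the median of all tested genes was -0.15. Without both replicate 1 libraries, in the blocked fit, it was -0.14.

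Dusp5, whose nuclear product is specific for ERK (ENSMUSG00000034765, chromosome 19, 53529109 to 53542431, plus strand), was at 72.4, 109.2 and 169.6 CPM in the Ctrl libraries numbered 1 to 3. The same-numbered cKO libraries held 88.6, 146.3 and 169.2 CPM. The spread among libraries of a group exceeded the difference between groups, with means of 117 ± 49.1 and 135 ± 41.6 CPM (SD, n = 3 each). Dusp5 had a log2 fold change of 0.23, with a 95% interval from -0.61 to 1.08 (limma adjusted p 0.99998). With the block the adjusted p was 0.390. Without Ctrl replicate 1 the value was -0.066.

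Dusp1, Dusp2 and Dusp5 differed more between the replicate 3 libraries and the mean of replicates 1 and 2 than between the groups. The replicate 3 value was 1.87 times the mean of replicates 1 and 2 in Ctrl and 1.56 times in cKO for Dusp1. It was 1.87 and 1.44 times for Dusp5, 1.38 and 1.39 times for Dusp2, and 1.19 and 1.34 times for Dusp6. Dusp10 stayed closest to 1 of the 9, at 0.969 and 1.02 times. In cKO, Dusp2 and Dusp5 were lowest in replicate 1 (409 and 88.6 CPM), and replicate 3 (819 and 169 CPM) was nearer replicate 2 (769 and 146 CPM). For these 2 genes the ratio in cKO thus also reflects a low replicate 1. What set the replicate 3 libraries apart was not tested.

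Dusp4, another nuclear phosphatase (ENSMUSG00000031530, chromosome 8, 34807297 to 34819894, plus strand), was close to the limit of detection. Its reads numbered 5, 13 and 75 in the Ctrl libraries and 29, 10 and 10 in the same-numbered cKO libraries, or between 0.147 and 1.42 CPM. The groups overlapped widely and the pairs went in different directions. Its mean of 0.563 CPM over the 6 libraries was under the minimum of 1 CPM, so Dusp4 alone of the 9 was left out of the tests at that minimum. In the limma fit with no minimum its log2 fold change was -0.16 (adjusted p 0.99997).

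Dusp10 encodes a phosphatase directed at p38 and JNK rather than ERK (ENSMUSG00000039384, chromosome 1, 184013302 to 184075636, plus strand). It was at 17.6, 20.7 and 18.6 CPM in the Ctrl libraries numbered 1 to 3, against 23.8, 21.3 and 23.1 CPM in the same-numbered cKO libraries. The groups did not overlap, although the gap between the highest Ctrl and the lowest cKO library was small. The means were 19.0 ± 1.6 and 22.7 ± 1.26 CPM (SD, n = 3 each). The log2 fold change was 0.25 with a 95% interval from -0.04 to 0.54. Dusp10 did not pass without the block (limma adjusted p 0.984) or with it (0.537). An opposite-strand gene, 1700056E22Rik, overlaps Dusp10 and was at between 0.720 and 1.84 CPM. Opposite-strand genes also overlap Dusp5 (AC137853.2) and Spry1 (Gm42922), and neither has values here. Strand-specific counting is not given in the sources used here, so reads of these overlapping pairs may not be fully separated.

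**Figure D2:**
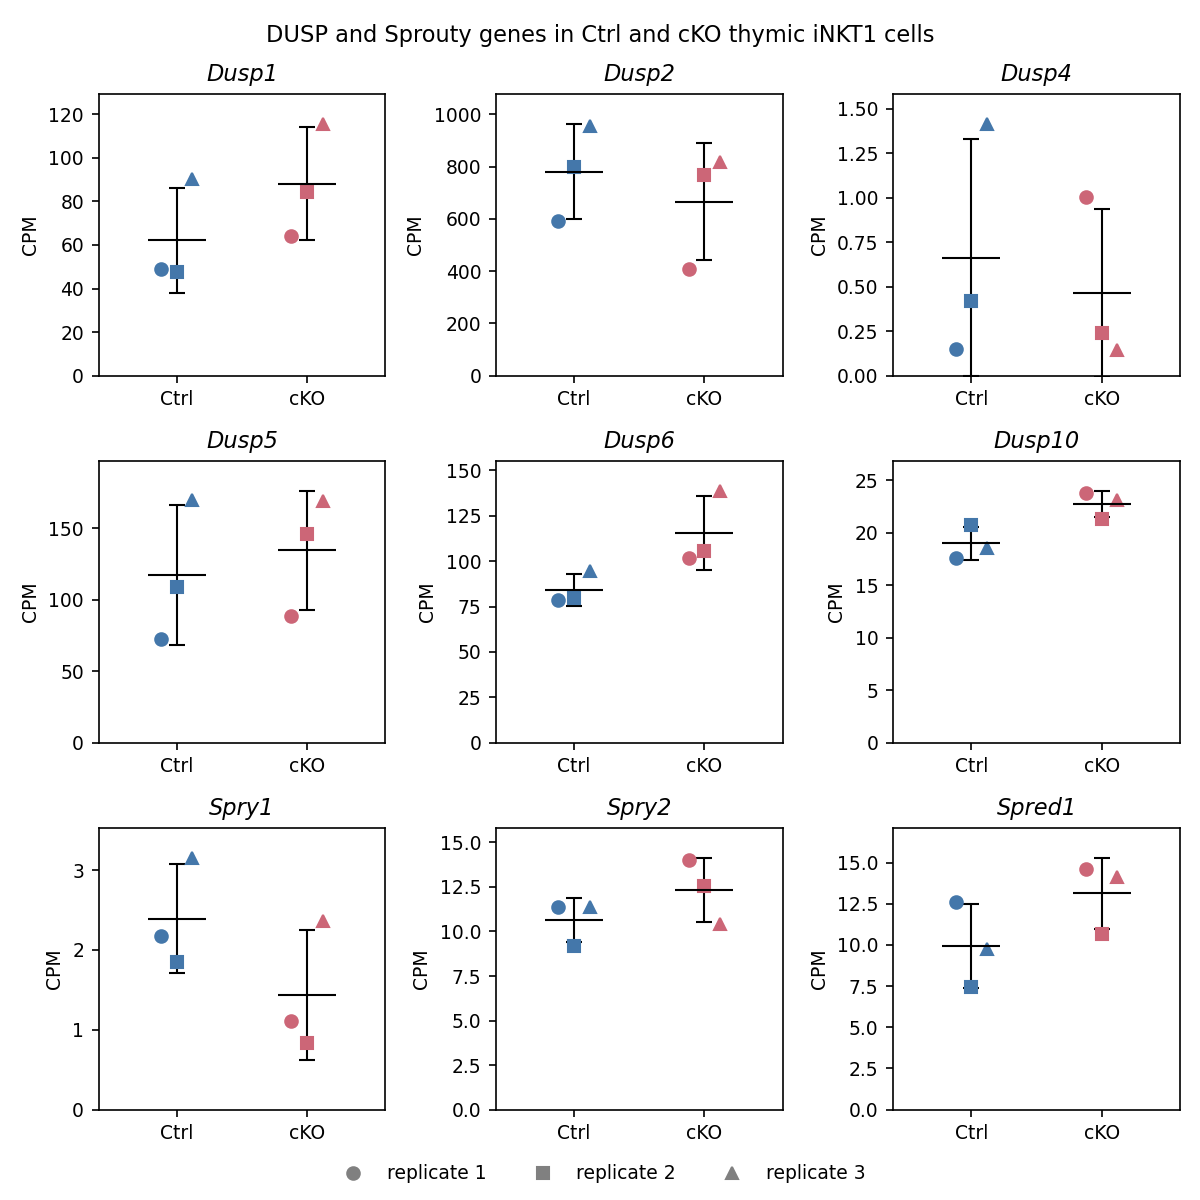
CPM of each gene in every library (linear axes from 0, a separate scale per gene), Ctrl in blue and cKO in red, with marker shape for the replicate number, a bar at the mean and whiskers of 1 SD (n = 3; those of Dusp4 are cut at 0). Dusp6 and Dusp10 show no overlap between groups, and Dusp1, Dusp2 and Dusp5 vary more among replicates than between groups.

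Among the Sprouty-family genes, Spry1, an inhibitor of receptor-driven RAS-ERK signalling (ENSMUSG00000037211, chromosome 3, 37639947 to 37644598, plus strand), was at 2.17, 1.85 and 3.15 CPM in the Ctrl libraries numbered 1 to 3. The same-numbered cKO libraries held 1.11, 0.833 and 2.36 CPM. The groups overlapped through cKO replicate 3, but cKO was lower in each pair, with ratios of 0.511, 0.450 and 0.750. The means were 2.39 ± 0.679 and 1.44 ± 0.816 CPM (SD, n = 3 each), resting on between 32 and 167 reads a library. The log2 fold change of -0.51 had a 95% interval from -1.57 to 0.55 (limma adjusted p 0.99998). With the block the interval was -0.89 to -0.13 and the adjusted p 0.221.

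Spry2, the related inhibitor (ENSMUSG00000022114, chromosome 14, 105891949 to 105896819, minus strand), was at 11.4, 9.20 and 11.4 CPM in the Ctrl libraries numbered 1 to 3, against 14, 12.6 and 10.4 CPM in the same-numbered cKO libraries. The groups overlapped, and the third pair went against the others. Spry2 had a log2 fold change of 0.19, with a 95% interval from -0.24 to 0.62 (limma adjusted p 0.99998). Spred1, which recruits neurofibromin to restrain RAS (ENSMUSG00000027351, chromosome 2, 117121374 to 117182279, plus strand), was at 12.6, 7.47 and 9.73 CPM in the Ctrl libraries numbered 1 to 3. The same-numbered cKO libraries held 14.6, 10.7 and 14.1 CPM. The groups overlapped, yet cKO was higher in each pair, with ratios of 1.16, 1.43 and 1.45. Spred1 had a log2 fold change of 0.39, with a 95% interval from -0.17 to 0.94 (limma adjusted p 0.99998, and 0.357 with the block). Spry1 therefore lay on the other side of 0 from Spry2 and Spred1, but none of the 3 passed.

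Of the 8 genes tested, 0 passed the limma threshold without the block, where 0.663% of all tested genes did, and 1 had an unadjusted p under 0.05, as did 6.02% of all tested genes. With the block 1 passed, Dusp6, against 2.87% of all tested genes, and 6 had an unadjusted p under 0.05, against 12.6%. Without the block edgeR called 0 of them, against 0.261% of all tested genes, and DESeq2 0 of the 7 to which it gave an adjusted p, against 4.72%. Dusp6 and Dusp1 passed under edgeR with the block, against 2.99% of all tested genes, and under limma with the block and TMM scaling, against 3.27%. The median log2 fold change of the 8 was 0.24, against -0.04 for all tested genes. In 4 of them (Dusp1, Dusp6, Dusp10 and Spred1) cKO was higher in all 3 pairs, which held for 11.5% of all tested genes, and in Dusp2 and Spry1 it was lower in all 3, which held for 18.5%; a shared direction in either sense held for 30% of all tested genes. The groups did not overlap in 2 of the 8, both higher in cKO, against 3.89% of all tested genes in that direction, 7.1% in the other and 11% in all. Without the block the 95% intervals, as ratios of cKO to Ctrl, had lower bounds from 0.337 (Spry1) to 1.07 (Dusp6) and upper bounds from 1.36 (Dusp2) to 2.37 (Dusp1). Only for Dusp6 did the interval of this fit leave out a ratio of 1.

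**Figure D3:**
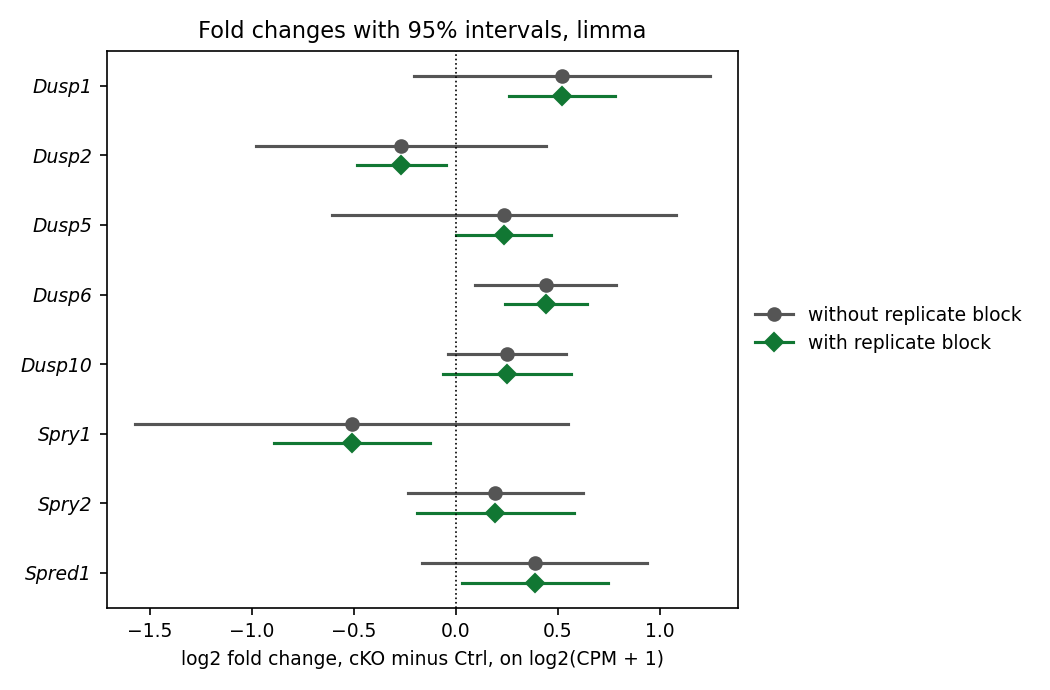
Log2 fold change of cKO minus Ctrl for the 8 tested genes (points) with 95% intervals (lines) from limma, without the replicate block (grey) and with it (green). The values are the same in both fits. The block narrows the intervals for Dusp1, Dusp2, Dusp5 and Spry1 most and widens that for Dusp10 (standard error 0.122 without the block, 0.138 with it).

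Other genes of the MAPK pathway were taken from lists that hold the remaining phosphatases and Sprouty genes, the cascade kinases and ERK-induced genes. Among the other MAP kinase phosphatases, 5 of 8 were tested, with 2 log2 fold changes above 0, 3 below 0 and a median of -0.30. With limma 0 passed without the block and 1 with it, against 0.663% and 2.87% of all tested genes. The gene that passed was Dusp7, a cytoplasmic ERK phosphatase closely related to Dusp6. Dusp7 was at 150.2, 148.2 and 122.1 CPM in the Ctrl libraries numbered 1 to 3, against 208, 195 and 229 CPM in the same-numbered cKO libraries, with no overlap. It rose with the block by 0.59 on the log2 scale (limma adjusted p 0.0254, and 0.124 without the block), and also in each of the 3 blocked fits that left out a pair. DESeq2, run without the block, called Dusp7 too (adjusted p 0.000105), as did limma on replicates 1 and 2 (0.0308), whereas edgeR without the block did not (0.263). Dusp22 lay on the other side of 0, at 3.80 ± 0.585 CPM in Ctrl against 1.86 ± 0.634 CPM in cKO (SD, n = 3 each), also with no overlap. Its log2 fold change was -0.76 (limma adjusted p 0.128 with the block). Of the 2 tested genes among the other Sprouty and Spred genes, 0 passed with limma, with or without the block, or with DESeq2, and 0 had an unadjusted limma p under 0.05.

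All 22 listed genes of the RAS to ERK cascade were tested, with a median log2 fold change of -0.05. With limma none passed without the block, against 0.663% of all tested genes, and 3 had an unadjusted p under 0.05, against 6.02%. With the block 1 passed, against 2.87% of all tested genes. That gene was Rasgrp1, the exchange factor that activates RAS after antigen receptor stimulation, at 291 ± 32.8 CPM (Ctrl) against 392 ± 54.2 CPM (cKO; SD, n = 3 each). It rose by 0.42 on the log2 scale with the block (limma adjusted p 0.0199, and 0.517 without). DESeq2 without the block called it too (adjusted p 0.00286), and edgeR without the block did not (0.521). Its blocked call was lost without pair 1 (limma adjusted p 0.117) and without pair 2 (0.135), but not without pair 3. Mapk3, which encodes an ERK kinase, was at 47.9 ± 1.87 CPM (Ctrl) against 39.7 ± 2.94 CPM (cKO; SD, n = 3 each; limma adjusted p 0.691).

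In the p38 and JNK arm, 16 of 18 listed genes were tested. With limma 1 passed without the block and 2 with it, against 0.663% and 2.87% of all tested genes. DESeq2 without the block called the same 2, Mapkapk3 (adjusted p 3.41e-11) and Mapk11 (0.0361), against 4.72% of the genes to which it gave an adjusted p. Mapkapk3, a kinase activated by p38 (chromosome 9, 107254927 to 107289877), fell from 211, 235 and 258 CPM in Ctrl replicates 1 to 3 to 67.2, 72.6 and 97.6 CPM in cKO replicates 1 to 3. The cKO mean was 0.337 of the Ctrl mean, a log2 fold change of -1.57 (standard error 0.157; limma adjusted p 0.0122, and 5.85e-05 with the block). Leaving out Ctrl replicate 1, 2 or 3 or cKO replicate 2 left it short of the threshold, with limma adjusted p values of 0.0557, 0.0907, 0.0613 and 0.0799, as did edgeR without the block (adjusted p 0.0837). Mapk11, a p38 isoform gene, was at 3.66 ± 1.5 CPM (Ctrl) against 9.38 ± 2.10 CPM (cKO; SD, n = 3 each) and rose with the block (log2 fold change 1.19, limma adjusted p 0.00885 against 0.422 without). Mapk14, another p38 isoform gene, was at 210.5 ± 1.99 CPM (Ctrl) against 207 ± 11.4 CPM (cKO; SD, n = 3 each). Mapkapk3 and Dusp7 (106368632 to 106375724) lie near each other on chromosome 9, which also carries Tgfbr2 (116087698 to 116175363).

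Of the genes that ERK signalling induces, 13 were tested and 0 passed without or with the block (limma), against 0.663% and 2.87% of all tested genes. Without and with the block, 2 and 4 of the 13 had an unadjusted limma p under 0.05, against 6.02% and 12.6% of all tested genes. Egr1, Fos, Junb and Ier2 are also on the list of immediate early and stress genes examined beside Dusp1. The median log2 fold change of the 13 was 0.06. Egr1, an early ERK target, was at 95 ± 18.2 CPM (Ctrl) against 117 ± 25 CPM (cKO), and Etv5, an ETS factor gene downstream of ERK, at 22.3 ± 3.96 and 29.7 ± 1.79 CPM (SD, n = 3 each). Myc lay on the other side of 0, at 329 ± 30.7 CPM (Ctrl) against 248 ± 41.5 CPM (cKO; SD, n = 3 each; limma adjusted p 0.0601 with the block).

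**Figure D4:**
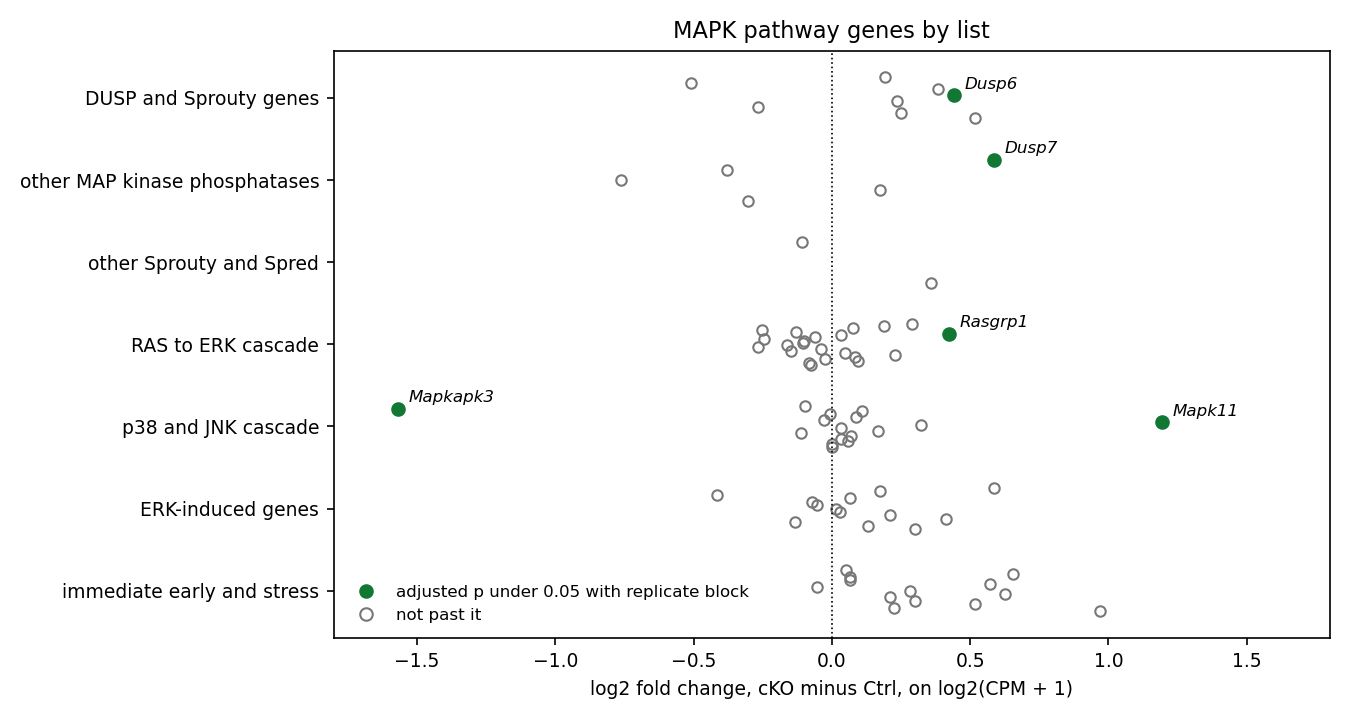
Log2 fold change of cKO minus Ctrl for each tested gene of the DUSP and Sprouty set and of 6 other lists, the immediate early and stress genes included (1 point per gene in each list, spread vertically for legibility). Filled points passed a limma adjusted p of 0.05 with the replicate block: Dusp6, Dusp7, Rasgrp1, Mapk11 and Mapkapk3, of which Mapkapk3 alone also passed without it.

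The genes whose levels followed Dusp6 most closely over the 6 libraries, among 10140 others averaging 5 CPM or more, were Herpud1 (Pearson's r 0.998), Trbc1 (0.997) and Abracl (0.996). These correlations are a description over libraries that share group and replicate differences. The log2 fold changes of the 3 genes were 0.20, 0.27 and 0.35, and none passed with the block (limma adjusted p from 0.0966 to 0.323).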

How the data were processed

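RNA-seq libraries of 3 Ctrl and 3 cKO samples (NuGEN Ovation Ultralow, per the labels' protocols) came as 1 table. Per the submitters' processing notes, the authors used Trimmomatic 0.33, STAR 2.5.2, HTSeq 0.6.1 and edgeR on mm10, with no roles given. The deposited CPM values were whole multiples of 1 read in 100% of cases (tolerance 0.01 read), and reads were recovered from them. The columns name WT and KO, read as Ctrl and cKO. Also deposited were the authors' log2 fold change, likelihood-ratio score and p-value (raw and adjusted) for each gene. The deposited gene width exceeds the genomic span for 1387 genes and was not used.

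The test was limma 3.58.1: log2(CPM + 1), a minimum of 1 CPM for a gene's mean, group as the only term, mean-variance trend and robust moderation, Benjamini-Hochberg adjustment, threshold 0.05. Fold changes on this scale understate those of low genes. edgeR 4.0.16 and DESeq2 1.42.0 were run on the recovered reads, and called 41 and 554 genes (R 4.3.3). Alternatives covered the block, pseudocount, filter, scaling, tool and each library left out. Fits were also run on simulated counts without replicate effects, which cannot show how they or the block behave with the replicate 3 libraries. Apart from cell type markers, genes named outside the 9 included those of fixed lists that passed with or without the block (up to 4 a list). Mapk3, Tgfbr2 and the 3 genes most correlated with the member of smallest p were also named. Atf3, Dusp22, Mapk14, Egr1, Etv5 and Myc were chosen after their values were seen. A further gene of the rule is not reported here. The members and lists were chosen with earlier results of these data known.

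Same-numbered Ctrl and cKO libraries deviated together from their group means, with correlations of 0.855, 0.688 and 0.924 over 15691 genes. Other-numbered libraries ran from -0.886 to 0.718. The shared replicate numbers of the labels were taken as pairs on the strength of these data, and the labels do not say what they mark. The check sets the replicate 3 libraries apart but does not settle the pairs of replicates 1 and 2. Ctrl replicate 1 deviated more with cKO replicate 1 (0.855) than with cKO replicate 2 (0.579). Ctrl replicate 2 also deviated more with cKO replicate 1 (0.718) than with cKO replicate 2 (0.688). Calls made only with the block rest on this pairing. No molecular identifiers are named in the labels, so depth describes counting error only.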

Additional observations from a re-analysis of the deposited data

How the results depend on the processing

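For the 9 genes the alternatives changed calls only through the replicate block. The count passing was 0 in the fit reported and in the other unblocked fits. Of the 8 tested it was 1 with the replicate block, against 2.87% of all tested genes. With TMM scaling and the replicate block it was 2 (against 3.27%), and under edgeR with the replicate block 2 (against 2.99%). In blocked fits that left out a pair (chosen after seeing the data, 1 residual degree of freedom) it ran from 0 to 3. The 3 were Dusp1, Dusp5 and Dusp6, without replicate 3, where 943 of all 15691 tested genes passed. It was 0 without replicate 1 and without replicate 2, where 388 and 387 of all tested genes passed. Dusp2 changed sign to 0.0508 without cKO replicate 1 and Dusp5 to -0.0664 without Ctrl replicate 1; without single libraries they ran from -0.454 to 0.0508 and from -0.0664 to 0.542. No other tested member changed sign in any fit run. DESeq2 gave no adjusted p to Spry1. Leaving out 1 library unbalances the replicates, and the median of all genes then moved to as far as -0.15 (without cKO replicate 1).

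Across all genes, 104 passed (32 higher, 72 lower). The counts were 451 (194, 257) with the replicate block, 513 (244, 269) with the block and TMM scaling, 41 (12, 29) under edgeR, 469 (229, 240) under edgeR with the block, 554 (282, 272) under DESeq2 and 291 (125, 166) in replicates 1 and 2. Without single libraries they ran from 14 to 85, with 3 to 19 higher and 10 to 66 lower, and in blocked fits they were 388 (139, 249) without replicate 1, 387 (148, 239) without replicate 2 and 943 (471, 472) without replicate 3. Of the other lists, the immediate early and stress genes included, 67 genes were tested. Without the block 1 passed, and with it 4, against 0.663% and 2.87% of all tested genes. The count was 6 with the block and TMM scaling (against 3.27%), 0 under edgeR (0.261%) and 5 under edgeR with the block (2.99%). It was 4 under DESeq2, against 4.72% of the genes with an adjusted p, and 4 in replicates 1 and 2, where 291 of all genes passed. It ran from 0 to 1 without a library and from 4 to 9 in blocked fits without a pair. The 9 came without replicate 3, where 943 of all 15691 tested genes passed. The cause of these differences was not tested.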
